A study of Mus musculus with 2 samples.

Results

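Foxn4, Ptf1a, Prdm13, Tfap2a, Tfap2b, Tfap2c, Lhx5, Lhx1, Onecut1 and Onecut2 are transcription factors that steer dividing retinal precursors towards amacrine and horizontal cells. They were taken by symbol from both deposited count matrices, and all 10 were found among the 27998 gene identifiers that each matrix lists. Their levels are described below from dividing precursors to differentiated cells, and then between the 2 libraries of the series, whose title links cell cycle length to oncogenic transformation.

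Amacrine and horizontal cells are the inhibitory interneurons of the retina, and both arise from precursors that leave the cell cycle under the winged-helix factor Foxn4. Foxn4 lies upstream of Ptf1a, a basic helix-loop-helix factor that both lineages need, and Prdm13 is a zinc-finger regulator that acts with Ptf1a in amacrine development. Tfap2a and Tfap2b encode AP-2 factors kept in differentiated amacrine and horizontal cells, and Tfap2c is a further AP-2 gene. Lhx5 and Lhx1 are LIM-homeodomain genes, with Lhx1 kept in horizontal cells. Onecut1 and Onecut2 are cut-homeodomain factors that promote the horizontal fate.

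Peripheral retina of postnatal day 8 mice was dissociated with papain, and single cells were profiled in droplets with 3′ tags, where a unique molecular identifier (UMI) marks each captured transcript. The library called DKO_Skp2het came from alphaCre, Rbf/f, p107-/-, skp2+/- mice, which the labels call resistant to tumors, and the library called DKO came from alphaCre, Rbf/f, p107-/- mice, which the labels call prone to them. Both groups thus lack p107 throughout and lose Rb where alpha-Cre, a driver of the peripheral retina, is active. They differ by 1 copy of Skp2, which encodes a ubiquitin ligase subunit that targets the cell cycle inhibitor p27. There is 1 library per genotype, the number of pooled animals is not given in the sources used here, and no retina with intact Rb and p107 was analysed here. No difference between the libraries therefore has a replicate check or a test, and every interval is an exact 95% interval that covers counting error only.

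From DKO_Skp2het 25766024 UMIs were counted in 5196 barcodes (median 3874, lowest 2387). From DKO 24413761 UMIs were counted in 3621 barcodes (median 4939, lowest 3420). After filters 4978 DKO_Skp2het cells and 3515 DKO cells were kept, and 30 barcode sequences occurred in both libraries. Skp2 itself stood at 56.6 CPM (counts per 1000000 UMIs) in DKO_Skp2het and 80.9 CPM in DKO, a ratio of 0.6997 (0.652 to 0.751). Rb1 (ratio 0.972) and Rbl1, the p107 gene (ratio 1.00), do not check the labels, because 3′ tags need not lie in the deleted part. Cells were called dividing when they held 3 or more UMIs of 26 proliferation genes after thinning to 1500 UMIs. By that rule 2452 DKO_Skp2het cells divided (49.3%), against 2118 DKO cells (60.3%). Cells of both libraries were clustered together, without the 10 factors or the proliferation genes, into 27 clusters. The rod gene Nr2e3 led cluster 10, and the labelled tissue is retina.

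Promoter sequence is shown for 3 factors that peak in clusters with successively fewer dividing cells: Ptf1a in cluster 12, Prdm13 in cluster 7 in DKO_Skp2het and cluster 5 in DKO, and Tfap2b in the amacrine-like cluster 13. Each stretch is the 250 bases before the RefSeq start of the gene, on the gene's own strand, in build GRCm38.p6. Capitals mark the E-box CANNTG, the kind of site that basic helix-loop-helix factors such as Ptf1a bind.
Ptf1a, chr2:19445413-19445662, plus strand: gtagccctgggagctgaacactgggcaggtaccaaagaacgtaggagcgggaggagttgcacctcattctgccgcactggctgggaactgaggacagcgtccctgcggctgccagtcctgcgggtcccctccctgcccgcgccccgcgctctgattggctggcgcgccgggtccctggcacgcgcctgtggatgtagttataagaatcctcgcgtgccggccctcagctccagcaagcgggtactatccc
Prdm13, chr4:21685964-21686213, minus strand: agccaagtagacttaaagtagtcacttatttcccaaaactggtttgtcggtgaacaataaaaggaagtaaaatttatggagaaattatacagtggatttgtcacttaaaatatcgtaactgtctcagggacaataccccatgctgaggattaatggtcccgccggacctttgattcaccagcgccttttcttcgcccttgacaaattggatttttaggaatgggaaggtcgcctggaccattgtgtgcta
Tfap2b, chr1:19211804-19212053, plus strand: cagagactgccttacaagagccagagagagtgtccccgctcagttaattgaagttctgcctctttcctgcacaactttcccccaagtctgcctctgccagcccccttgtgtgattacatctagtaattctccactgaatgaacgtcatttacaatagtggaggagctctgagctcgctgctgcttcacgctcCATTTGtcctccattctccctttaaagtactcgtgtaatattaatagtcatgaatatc
Of the 3 windows, the Tfap2b window holds 1 E-box, and the letters CANNTG do not occur in the Ptf1a or Prdm13 window. An E-box was present in 66.2% of the 32851 RefSeq mouse promoter windows of the same length. Searched on both strands, the AP-2 letters GCCNNNGGC, the Onecut letters ATTGAT and the homeodomain letters TAATTA occurred in none of the 3 windows, and in 13.7%, 6.72% and 4.84% of all windows. A match or its absence describes these letters only. In GENCODE M21 (GRCm38), Ptf1a spans chr2:19445663-19447501, Prdm13 spans chr4:21677480-21685963 and Tfap2b spans chr1:19208914-19238576, so that the Tfap2b window lies inside the annotated gene but in no exon of it. Foxn4 (chr5:114254164-114273807), Tfap2a (chr13:40715302-40738376), Tfap2c (chr2:172549593-172558622), Lhx5 (chr5:120431699-120441223), Lhx1 (chr11:84518284-84525535) and Onecut1 (chr9:74861921-74891781) follow the same annotation. At 4 loci another annotated gene that the files also count overlaps the factor. Ptf1aos, Gm26688 and Gm27199 lie on the opposite strand of Ptf1a, Tfap2a and Lhx5, and Gm20649 lies on the same strand as Onecut1. Their counts were 0 to 31 UMIs in DKO_Skp2het and 3 to 34 in DKO. These counts do not measure how many reads of a factor were affected by the overlap, which was not tested. This limit weighs most on Onecut1, with 65 UMIs in DKO_Skp2het and 89 in DKO, beside 31 and 27 UMIs of Gm20649. The Onecut1 values below carry that limit.

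Foxn4 was highest in a subset of the dividing clusters, in both libraries. Cluster 6, led by mitotic genes and named neurogenic precursor-like, was made up entirely of dividing cells and had 226 Foxn4 CPM in DKO_Skp2het (276 UMIs in 246 cells) and 222 CPM in DKO (225 UMIs in 188 cells). In cluster 8, led by Olig2 and the Notch ligand gene Dll4, Foxn4 stood at 178 CPM in DKO_Skp2het and 175 CPM in DKO. In cluster 9, photoreceptor precursor-like, Foxn4 stood at 164 CPM in DKO_Skp2het and 189 CPM in DKO. At least 99% of the cells of these 3 clusters divided in each library. Other dividing clusters were lower. In cluster 1, retinal progenitor-like and the largest dividing cluster, Foxn4 stood at 31.4 CPM in DKO_Skp2het (486 cells) and 23.3 CPM in DKO (539 cells), and in cluster 17 at 10.4 CPM in DKO_Skp2het and 10.6 CPM in DKO. In cluster 13, amacrine-like, 2 Foxn4 UMIs were counted in DKO_Skp2het and 3 in DKO. Of the cells with a Foxn4 UMI, 89.7% divided in DKO_Skp2het (567 of 632 cells) and 89.4% in DKO (634 of 709).

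Ptf1a was concentrated in a small cluster that also held Prdm13, Lhx5 and Tfap2c. This cluster 12 was led by Chodl, Ripply3 and the proneural gene Neurog1, it has no cell type name, and 77.9% of its 77 DKO_Skp2het cells and 82.2% of its 146 DKO cells divided. It held 47.5% of all Ptf1a UMIs in DKO_Skp2het (140 of 295) and 45.6% in DKO (238 of 522), while its cells were 1.55% and 4.15% of the kept cells. Its Ptf1a level was 202 CPM in DKO_Skp2het and 132 CPM in DKO. Prdm13 stood there at 271 CPM in DKO_Skp2het and 171 CPM in DKO, and Lhx5 at 70.5 CPM in DKO_Skp2het and 42.2 CPM in DKO. Its cells were deep, with a median of 6913 UMIs in DKO_Skp2het and 8250 in DKO. The size of cluster 12 is not compared, because 3 of the 10 genes that lead it differed between the libraries beyond counting error.

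Prdm13 and Tfap2c were high in clusters with few dividing cells. In cluster 5, led by Klhl35, Igfbpl1 and Nhlh2, 11.6% of 301 DKO_Skp2het cells and 30.8% of 273 DKO cells divided. Prdm13 there had 248.9 CPM in DKO_Skp2het and 266 CPM in DKO, and Tfap2c had 255 CPM in DKO_Skp2het and 247 CPM in DKO. Ptf1a was lower than in cluster 12, at 34.9 CPM in DKO_Skp2het and 52.1 CPM in DKO, and Lhx5 had 36.9 CPM in DKO_Skp2het and 36.4 CPM in DKO. In cluster 7, led by Ebf3 and Ebf1, which encode factors of amacrine subtypes, 2.78% of 216 DKO_Skp2het cells and 12.8% of 156 DKO cells divided. Prdm13 reached 334 CPM there in DKO_Skp2het and 263 CPM in DKO, and Tfap2c 261 CPM in DKO_Skp2het and 260 CPM in DKO, while Ptf1a was down to 1 UMI in DKO_Skp2het and 3 in DKO. Clusters 5 and 7 also carried Glra2, a glycine receptor gene, at 174 and 240 CPM over both libraries, and Gad2, a GABA synthesis gene, at 277 and 234 CPM.

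Tfap2b and Tfap2a were the highest of the factors in cluster 13, which was amacrine-like by markers other than the 10 factors. Gad1 (247 CPM inside against 6.08 CPM outside) and C1ql2 (806 against 5.06 CPM) were high, while Slc6a9, the glycine transporter gene (4.76 against 21.7 CPM), and Chat (0 against 0.349 CPM) were not. Its Tfap2b level was 1614 CPM in DKO_Skp2het (895 UMIs in 102 cells) and 1889 CPM in DKO (1331 UMIs in 116 cells). Tfap2a stood at 258 CPM in DKO_Skp2het and 309 CPM in DKO, and Tfap2c at 84.8 CPM in DKO_Skp2het and 62.4 CPM in DKO. Prdm13 was down to 3 UMIs in DKO_Skp2het and 5 in DKO, and Ptf1a, at 0 UMIs in both libraries, was below 5.41 CPM in DKO_Skp2het and 4.26 CPM in DKO, the levels that 3 counts would give.

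The AP-2 genes were combined differently in 2 further clusters that carry inhibitory genes but met no cell type name. Cluster 19, led by Crybb3 and Maf and high in Gad1 (313 CPM), had 300 Tfap2b CPM in DKO_Skp2het and 657 CPM in DKO. It held Tfap2c at 164 CPM in DKO_Skp2het and 211 CPM in DKO. Cluster 21, led by Lamp5 and Gjd2 and high in Slc6a9 (351 CPM) with Gad1 at 0, had 228 Tfap2a CPM in DKO_Skp2het and 245 CPM in DKO, and 214 Tfap2b CPM in DKO_Skp2het and 390 CPM in DKO. In cluster 21 the UMIs of the 2 genes were thus near equal in DKO_Skp2het (32 of Tfap2a and 30 of Tfap2b) but not in DKO (34 and 54), whereas cluster 13 had more Tfap2b UMIs than Tfap2a UMIs in both libraries (895 and 143 in DKO_Skp2het, 1331 and 218 in DKO).

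Lhx1, Onecut1 and Onecut2 were highest in the horizontal-like cluster 25, of 17 DKO_Skp2het and 12 DKO cells. All 6 horizontal markers passed 2-fold there, among them Calb1 at 958 CPM inside against 4.75 CPM outside. Lhx1 had 484 CPM in DKO_Skp2het (127 UMIs) and 427 CPM in DKO (74 UMIs), and 91.4% of all Lhx1 UMIs in DKO_Skp2het and 71.8% in DKO came from these cells. Onecut1 had 91.6 CPM in DKO_Skp2het and 63.5 CPM in DKO. Onecut2 had 988 CPM in DKO_Skp2het and 1241 CPM in DKO, and Tfap2b had 896 CPM in DKO_Skp2het and 1178 CPM in DKO. All 3 genes were also counted in dividing clusters at lower levels. In cluster 11 Lhx1 stood at 8.41 CPM in DKO_Skp2het (8 UMIs) and 9.67 CPM in DKO (13 UMIs), and in cluster 9 Onecut2 stood at 87.6 CPM in DKO_Skp2het and 86.3 CPM in DKO. Prdm13 had 0 UMIs in the DKO_Skp2het and 2 UMIs in the DKO horizontal-like cells, and Tfap2c had 0 in both.

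**Figure D1:**
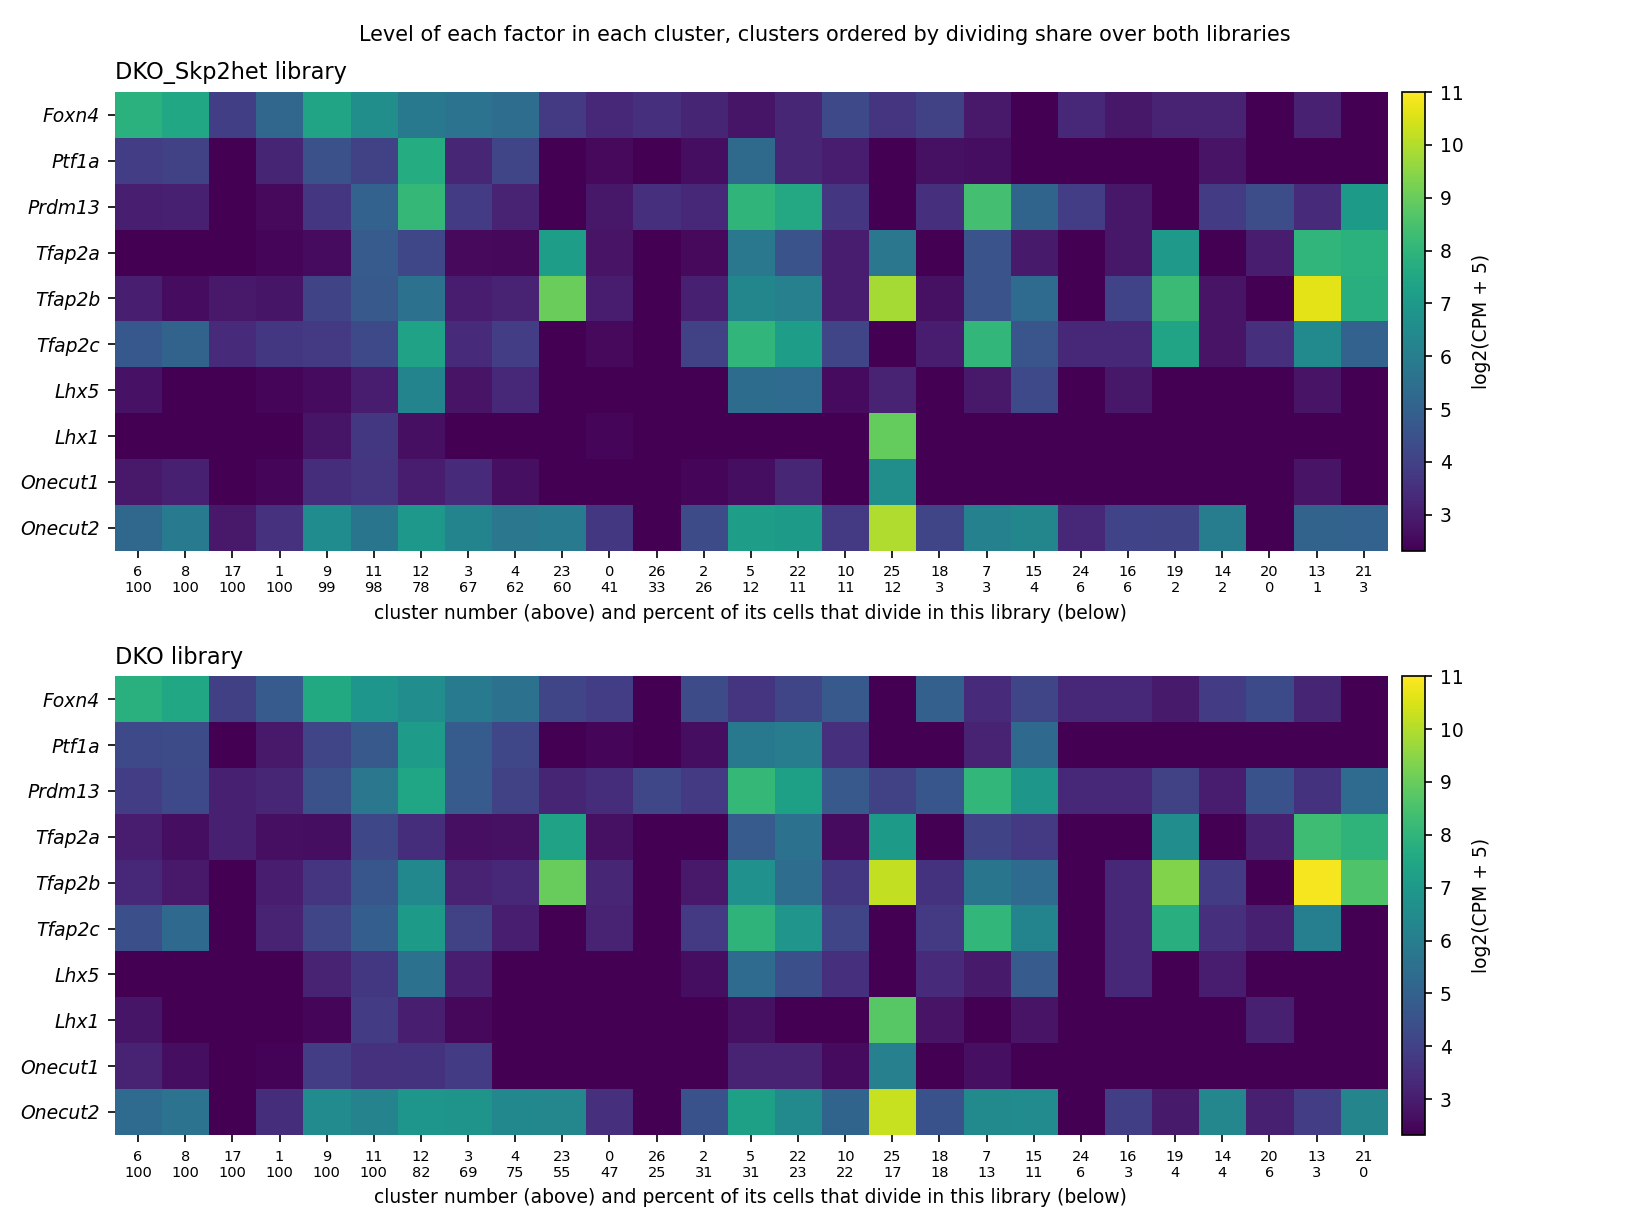
Level of each factor, as log2(CPM + 5), in each of the 27 clusters, with the DKO_Skp2het library above and the DKO library below, and clusters ordered from left to right by the share of dividing cells over both libraries. Foxn4 is bright on the left in clusters 6, 8 and 9, Ptf1a and Prdm13 in cluster 12, Prdm13 and Tfap2c in clusters 5 and 7, Tfap2b on the right in cluster 13, and Lhx1 in cluster 25, in both libraries.

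Microglia-like cells, which should lack all 10 factors, were used to gauge background counts such as free RNA, whose source was not tested. Over their 41 DKO_Skp2het cells (median 7519 UMIs) the factors summed to 8 UMIs and 25.5 CPM, and over their 31 DKO cells (median 9247 UMIs) to 13 UMIs and 46.2 CPM. Tfap2b, the factor with the most UMIs over all kept cells (1560 in DKO_Skp2het and 2445 in DKO), had 0 there in both libraries. Prdm13 was the highest in DKO_Skp2het, at 15.95 CPM, and in DKO, at 17.8 CPM, and values of that size elsewhere may hold background counts. Lhx5, Lhx1 and Onecut1 lay below it over all, dividing and other cells, and in microglia-like cells they had 0 UMIs, apart from 1 Lhx1 UMI in DKO. The part of background counts in their ratios was not tested. Other classes were not all as low. In the rod-like cluster 10 the factors summed to 52.7 CPM in DKO_Skp2het and 109.5 CPM in DKO (ratio 0.481). Cone-like cells had 36.2 CPM in DKO_Skp2het and 88.1 CPM in DKO (0.411). The rod-like cluster 22 had 584.3 CPM in DKO_Skp2het and 512.5 CPM in DKO (1.14), and microglia-like cells had a ratio of 0.553 (0.199 to 1.44). How much of these values is background was not tested. After thinning to 1500 UMIs, a Foxn4 UMI was found in 0% of DKO_Skp2het and 3.23% of DKO microglia-like cells, against 27.2% and 29.3% of the cells of cluster 6. Without thinning the shares were 0% and 12.9% in microglia-like cells, against 61.0% and 61.2% in cluster 6.

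The ratio of the CPM in dividing cells to the CPM in other cells put the factors in a similar order in each library. At the dividing end, Foxn4 had 75.6 CPM in dividing and 6.22 CPM in other DKO_Skp2het cells, and 91.1 CPM in dividing and 10.7 CPM in other DKO cells. Ptf1a came next in DKO_Skp2het, with a ratio of 2.49 (interval 1.92 to 3.27), and its ratio in DKO was 1.58 (1.30 to 1.94). Lhx5, Onecut1 and Onecut2 lay near 1 in DKO_Skp2het, at 0.896, 0.869 and 0.846, and their intervals overlapped each other. In DKO, Lhx5 and Onecut2 lay at 0.904 and 0.908. Onecut1 alone moved across 1, at 1.75 in DKO, from 32 dividing and 33 other UMIs in DKO_Skp2het and 67 and 22 UMIs in DKO, and its DKO ratio was 0.879 after thinning to 1500 UMIs.

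The other 5 factors were lower in dividing cells. Prdm13 had a ratio of 0.424 in DKO_Skp2het and 0.615 in DKO, with intervals that did not overlap, and Tfap2c had 0.356 in DKO_Skp2het and 0.443 in DKO. Tfap2a had 0.2001 in DKO_Skp2het and 0.179 in DKO, and Lhx1 had 0.196 in DKO_Skp2het and 0.350 in DKO. Tfap2b stood last in both, at 0.130 in DKO_Skp2het and 0.136 in DKO. Past 1.5-fold, 5 factors were lower and 2 higher in dividing DKO_Skp2het cells, where 22.1% and 11.7% of all genes with at least 50 UMIs were. In DKO, 5 were lower and 3 higher, where 22.8% and 12.9% of all genes were. Between amacrine-like and dividing cells, 3 of 8 factors in DKO_Skp2het and 3 of 9 in DKO were higher by 1.5-fold. These were the 3 AP-2 genes, against 25.4% and 25.5% of all genes. The other 5 and 6 were lower, against 34.9% and 34.0%. Amacrine-like cells are cluster 13 alone, and the other clusters with inhibitory genes were not all alike. Tfap2c had 164 CPM in DKO_Skp2het and 211 CPM in DKO in cluster 19, but 4 and 0 UMIs in cluster 21. Prdm13 had 0 UMIs in DKO_Skp2het and 4 in DKO in cluster 19. In cluster 21 it had 18 UMIs (128 CPM) in DKO_Skp2het and 5 UMIs (36.1 CPM) in DKO. Amacrine-like cells held only 4.23% and 4.54% of the UMIs compared, so a factor could reach 50 UMIs through dividing cells alone. The counts of lower factors are therefore not read as a result. Lhx5 in DKO_Skp2het (1 against 71 UMIs) and Onecut1 in DKO (0 against 67 UMIs) had intervals that span 1. Graded by the proliferation UMIs of a cell (0, 1 to 2, 3 to 5, and 6 or more), Foxn4 stood at 4.55, 7.82, 30.4 and 93.1 CPM in DKO_Skp2het and at 5.53, 15.2, 41.9 and 106 CPM in DKO. Tfap2b stood at 153, 90.7, 9.10 and 18.2 CPM in DKO_Skp2het and at 304, 169, 33.1 and 31.2 CPM in DKO over the same grades. Foxn4 was thus higher at each successive grade and Tfap2b was highest in the cells with no proliferation UMI, with Prdm13 between them, at 77.6, 44.7, 34.4 and 22.4 CPM in DKO_Skp2het and 80.2, 78.5, 58.7 and 45.8 CPM in DKO. The order of single cells along a lineage was not measured, and the share of dividing cells stands in for it.

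**Figure D2:**
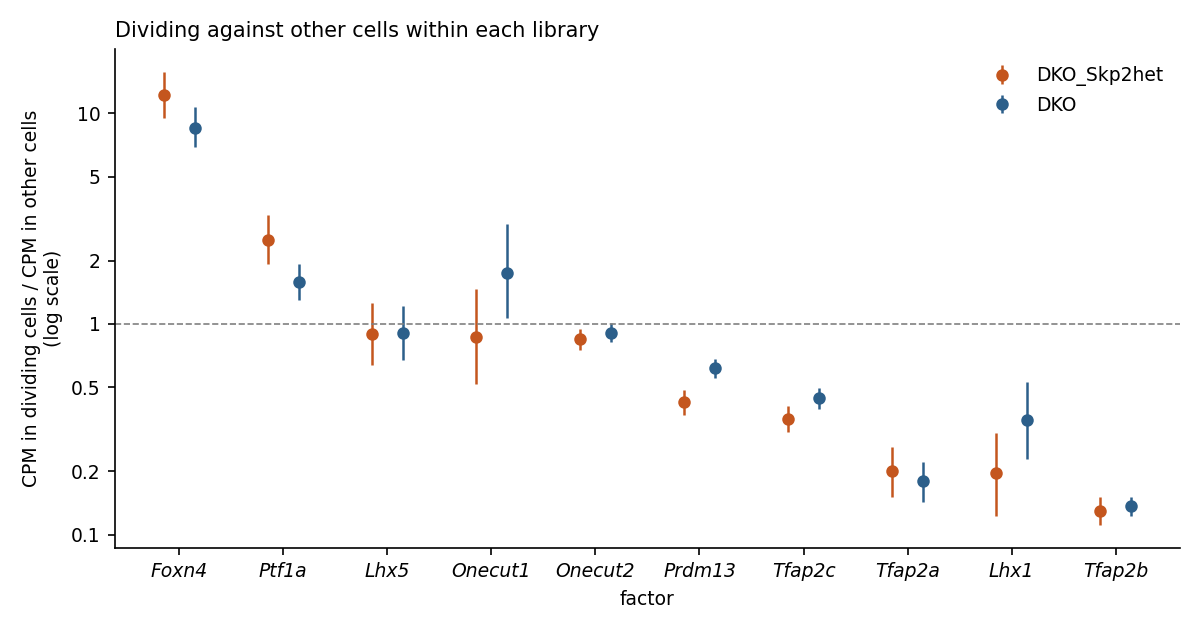
Ratio of the CPM in dividing cells to the CPM in other cells for each factor, on a log scale, in DKO_Skp2het (orange, left) and DKO (blue, right), with exact 95% counting intervals. The ratio runs from 12.2 in DKO_Skp2het and 8.52 in DKO for Foxn4 to 0.130 and 0.136 for Tfap2b.

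The share of dividing cells among the cells that held a UMI of a factor gave a partly different order, which was highest for Foxn4 as well. Of Ptf1a cells, 68.3% divided in DKO_Skp2het (97 of 142) and 74.1% in DKO (169 of 228). Of Prdm13 cells, 28.0% divided in DKO_Skp2het (140 of 500) and 50.1% in DKO (304 of 607), and of Tfap2c cells 29.98% in DKO_Skp2het and 44.4% in DKO. Over all kept cells the share was 49.3% in DKO_Skp2het and 60.3% in DKO. Held to cells of at least 3420 UMIs, the lowest value in DKO, the Prdm13 share was 34.0% in DKO_Skp2het and 50.1% in DKO. The lowest share was that of Tfap2a cells, at 18.5% in DKO_Skp2het and 25.6% in DKO, followed by Tfap2b cells, at 25.1% in DKO_Skp2het and 38.7% in DKO. For Lhx1 cells it was 40.7% in DKO_Skp2het and 51.3% in DKO.

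Some pairs of factors were found in the same cells more often than over all kept cells, and others were not. Of the cells with a Ptf1a UMI, 52.1% in DKO_Skp2het and 72.8% in DKO also held Prdm13, against 10.0% and 17.3% of all kept cells. A Foxn4 UMI was found in 25.4% of Ptf1a cells in DKO_Skp2het and 33.3% in DKO, against 12.7% and 20.2% of all kept cells. Of Prdm13 cells, 49.4% in DKO_Skp2het and 59.0% in DKO held Tfap2c, against 10.8% and 17.6% of all kept cells. Foxn4 was found in 8.8% of Prdm13 cells in DKO_Skp2het and 20.1% in DKO, not above its share of all kept cells. Of Lhx1 cells, 55.6% of 27 in DKO_Skp2het and 23.1% of 39 in DKO held Onecut1, against 1.085% and 2.30% of all kept cells. A deeper cell more often holds a UMI of any gene. Ptf1a cells had a median of 5682 UMIs in DKO_Skp2het and 8508 in DKO, and Lhx1 cells 9818 and 10503. All kept cells had a median of 3800 in DKO_Skp2het and 4869 in DKO. The part of depth in these shares and in the difference between the libraries was not tested.

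Between the libraries, 9 of the 10 factors were lower in DKO_Skp2het over all kept cells. The share of all genes with a ratio below 1 was not counted, so this count has no comparison. Ptf1a had 12.4 CPM in DKO_Skp2het (295 UMIs) and 22.4 CPM in DKO (522 UMIs), a ratio of 0.554 (0.478 to 0.640). Tfap2b had 65.5 CPM in DKO_Skp2het and 105 CPM in DKO, a ratio of 0.625 (0.586 to 0.666). These 2 were past 1.5-fold, where 1.89% of the 13465 genes with at least 50 UMIs were lower by that much, and none of the 10 was higher, where 3.13% of genes were. Foxn4 had 42.8 CPM in DKO_Skp2het and 61.8 CPM in DKO (ratio 0.693), and Prdm13 had 42.3 CPM in DKO_Skp2het and 59.9 CPM in DKO (0.706). Lhx5 (0.675), Onecut1 (0.715), Tfap2c (0.766), Onecut2 (0.779) and Tfap2a (0.7997) were lower as well. The summed factors had 288 CPM in DKO_Skp2het and 408 CPM in DKO, a ratio of 0.706, and the median over the 10 was 0.711, against 1.02 over all genes tested.

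Lhx1 was the exception, with 5.84 CPM in DKO_Skp2het and 4.41 CPM in DKO, a ratio of 1.32 (1.02 to 1.72). After thinning to 1500 UMIs per cell the Lhx1 ratio was 0.789 (0.388 to 1.62), so its direction depended on depth. The unthinned value rested on the horizontal-like cells. Without those 17 DKO_Skp2het and 12 DKO cells, 12 Lhx1 UMIs were left in DKO_Skp2het and 29 in DKO, a ratio of 0.407, and all 10 factors were below 1.

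Within dividing cells all 10 factors were below 1, and 5 of them were past 1.5-fold, where 3.7% of 12168 genes were lower and 3.43% higher by that much. The median over all genes tested there was 1.02, and their share below 1 was not counted. Tfap2b had 15.7 CPM in dividing DKO_Skp2het cells and 31.6 CPM in dividing DKO cells, a ratio of 0.496 (0.417 to 0.587). Prdm13 had 25.8 CPM in DKO_Skp2het and 48.8 CPM in DKO, a ratio of 0.529 (0.462 to 0.604). Onecut1 (0.563), Tfap2c (0.602) and Lhx5 (0.665) were the others past that fold, Ptf1a followed at 0.668, and Foxn4 was the least different, at 0.829 (0.762 to 0.902). The core proliferation genes of the same cells had a median ratio of 1.05. In amacrine-like cells the summed factors stood at 1998 CPM in DKO_Skp2het and 2282 CPM in DKO, a ratio of 0.876. Of the 3 factors with at least 50 UMIs there, none was past 1.5-fold, where 4.44% of 4284 genes were lower and 4.53% higher.

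The libraries also differed in how their cells fell into clusters, and ratios were computed at equal make-up. With the clusters of both libraries weighted by their share of DKO UMIs, a calculation added after the data had been seen, the ratio of the summed factors was 0.914 over all kept cells and 0.968 over dividing cells. By the same weighting Ptf1a stood at 1.05, Prdm13 and Tfap2c both at 1.02, and Tfap2a at 1.05, Tfap2b at 0.784, Onecut1 at 0.746 and Foxn4 at 0.854, and 4 of the 10 were below 1. This weighting uses all 27 clusters, of which 14, cluster 12 included, have leading genes that differ too much between the libraries for their sizes to be compared. The Ptf1a, Prdm13 and Lhx5 values rest in part on cluster 12, and the part of cell make-up in the library differences was not tested. Cluster 9 held 16% of the Foxn4 UMIs in DKO_Skp2het and 32.6% in DKO. It took 2.51% of DKO_Skp2het cells (125 cells, interval 2.09% to 2.99%) and 6.06% of DKO cells (213 cells, 5.29% to 6.90%). None of the 10 genes that lead it differed between the libraries by the rule for comparing cluster sizes. Cluster 6 took 4.94% of DKO_Skp2het and 5.35% of DKO cells, and cluster 5 took 6.05% of DKO_Skp2het and 7.77% of DKO cells. Cell number in a suspension also follows dissociation and capture, whose part was not tested.

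**Figure D3:**
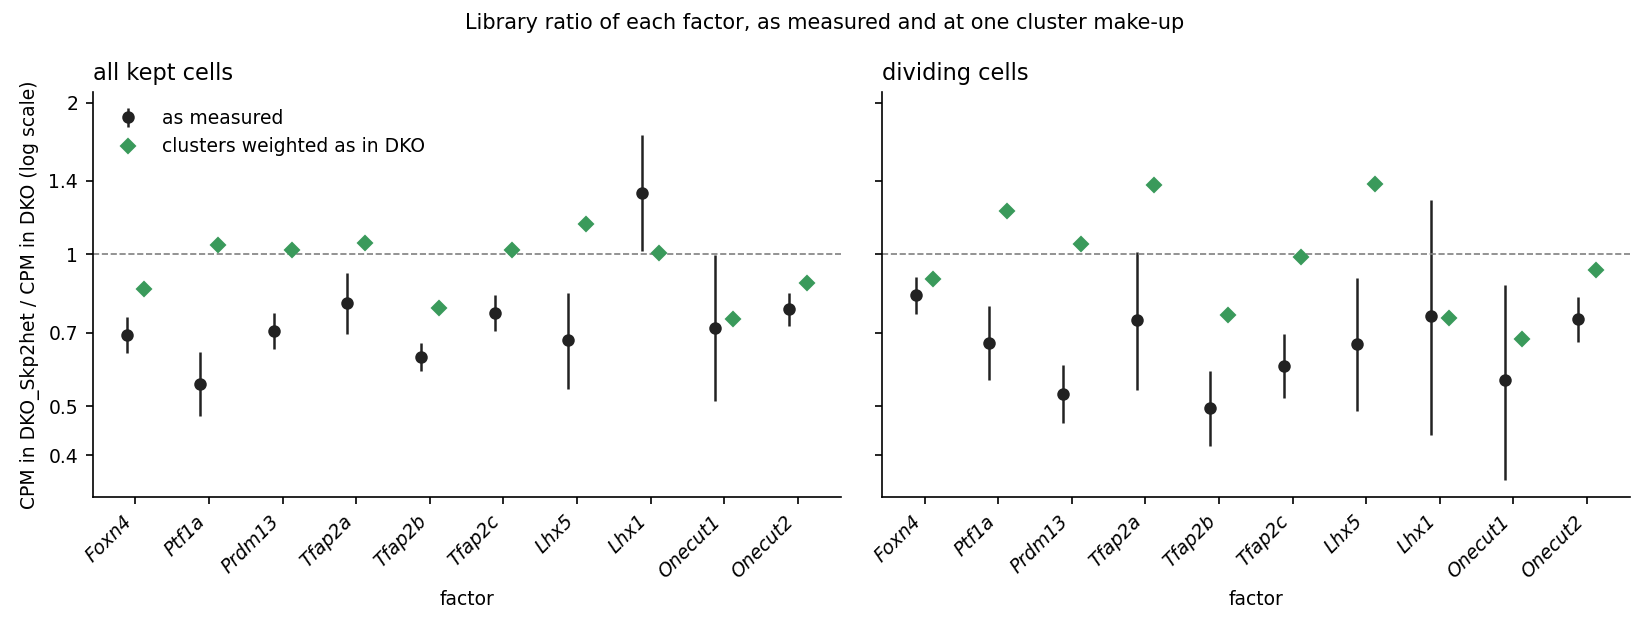
Ratio of the DKO_Skp2het CPM to the DKO CPM of each factor on a log scale, over all kept cells (left) and dividing cells (right). Black circles are the values as measured with exact 95% counting intervals, and green diamonds are the values with clusters weighted as in DKO, for which no interval was made. Over all kept cells 9 circles and 4 diamonds lie below 1.

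Inside clusters the Foxn4 level was close to equal in the 2 neurogenic clusters, with a ratio of 1.02 in cluster 6 (0.850 to 1.22) and of 1.02 in cluster 8 (0.803 to 1.29). In cluster 12 the factors parted. Ptf1a (1.53, interval 1.23 to 1.89), Prdm13 (1.58, 1.31 to 1.90) and Lhx5 (1.67, 1.14 to 2.43) were higher in DKO_Skp2het, and Foxn4 (0.573, 0.388 to 0.827) and Tfap2b (0.560, 0.364 to 0.836) were lower. Ptf1a was found in 27.3% of the thinned DKO_Skp2het cells of that cluster and 25.3% of its thinned DKO cells, and Prdm13 in 39.0% of them in DKO_Skp2het and 22.6% in DKO. In cluster 5 the Ptf1a ratio was 0.670 (0.472 to 0.942), Prdm13 and Tfap2c stood at 0.934 and 1.03, and Tfap2a was higher in DKO_Skp2het, at 50.0 CPM against 23.3 CPM in DKO (ratio 2.15, 1.47 to 3.17). In cluster 7 the Prdm13 ratio was 1.27 (1.05 to 1.54).

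Onecut2 and Tfap2b were lower in DKO_Skp2het in most of the clusters where they could be compared, and the other factors were more mixed. Onecut2 was below 1 in 10 of 13 clusters, 4 of them beyond counting error, with a median of 0.858. Foxn4 and Prdm13 were each below 1 in 5 of 8 clusters, 1 and 3 of them beyond counting error, and Tfap2c was below 1 in 2 of 7. Prdm13 was also above 1 beyond counting error in 2 clusters. Ptf1a lay below 1 in 1 cluster and above 1 in 1, both beyond counting error. Tfap2a was below 1 in 3 of 5 clusters, with 0 below and 1 above 1 beyond counting error. Lhx5 was above 1 in 2 of 2 clusters and Lhx1 in 1 of 1. Of the 7 clusters with at least 50 Tfap2b UMIs, 6 had a ratio below 1 beyond counting error, and the median of the 7 was 0.739. In cluster 19 the ratio was 0.457 (0.347 to 0.594), from 75 UMIs in DKO_Skp2het and 237 UMIs in DKO, although 34.9% of the thinned DKO_Skp2het cells and 35.2% of the thinned DKO cells held a Tfap2b UMI. In the amacrine-like cluster 13 the ratio was 0.854 (0.784 to 0.931), and in cluster 23, which was led by Rims1 and Pnoc, it was 1.02. Over all factors, 53 pairs of a factor and a cluster had at least 50 UMIs. Of these, 32 were below 1 (15 beyond counting error) and 21 above 1 (5 beyond counting error), with a median of 0.895. Factors of 1 cluster share its cells, and the pairs are not independent. The same tally was not made over all genes.

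**Figure D4:**
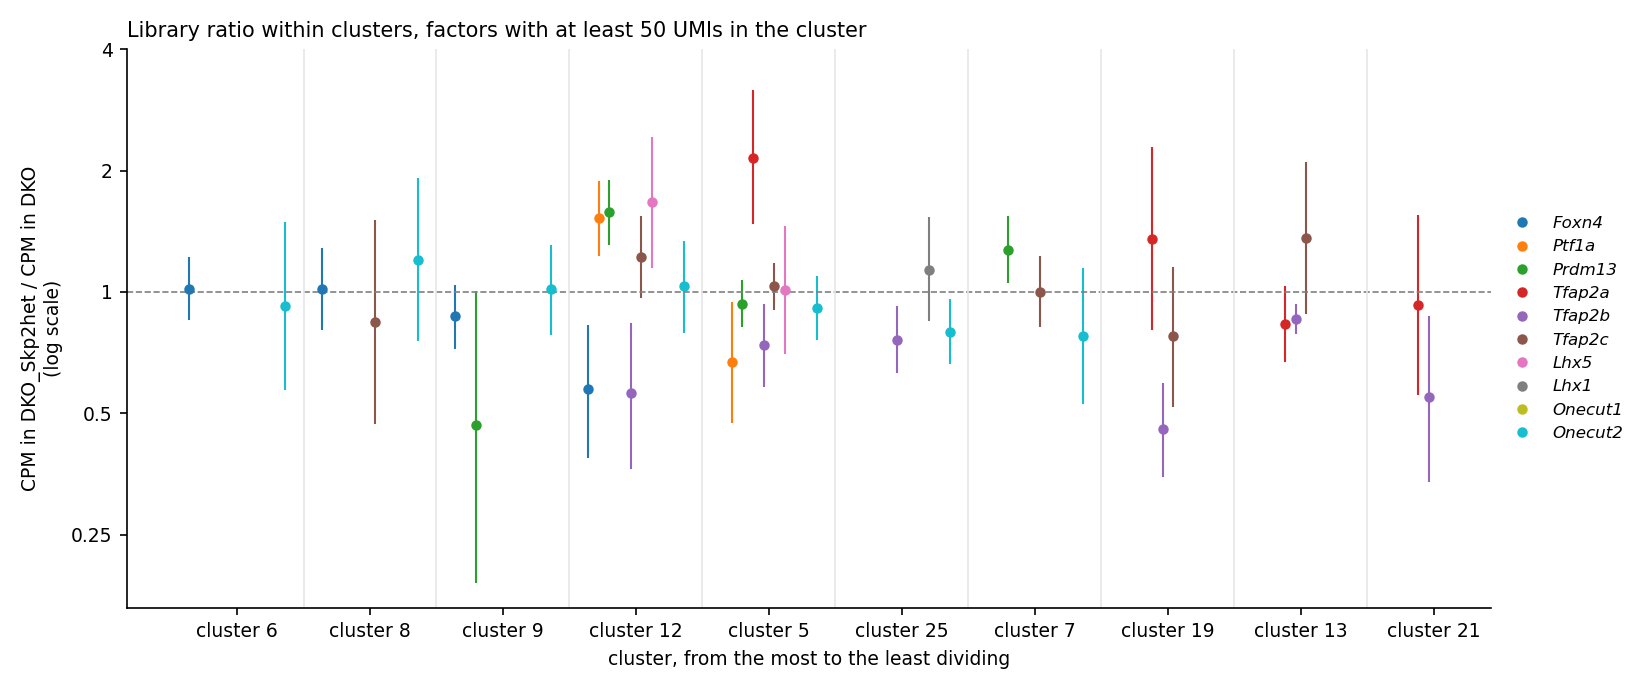
Ratio of the DKO_Skp2het CPM to the DKO CPM within 10 clusters, on a log scale, for each factor with at least 50 UMIs in the cluster, with exact 95% counting intervals. Foxn4 lies at 1.02 in clusters 6 and 8, Ptf1a, Prdm13 and Lhx5 lie above 1 in cluster 12, and Tfap2b lies below 1 in each cluster where it is drawn.

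Other genes of the pathway were less far from equal than the 10 factors over all kept cells. Of 12 genes that act with or around Foxn4 and Ptf1a, 9 were lower in DKO_Skp2het and none was past 1.5-fold, with a median ratio of 0.908. Among them the proneural gene Neurod1 had a ratio of 0.779, the homeobox gene Meis2 0.826 and the proneural gene Neurod4 0.851, while Dll1, a Notch ligand gene, stood at 1.199, Tcf3, a partner of basic helix-loop-helix factors, at 1.15 and its relative Tcf12 at 1.02. Of 13 amacrine subtype factors, 10 were lower and 1 was past that fold, with a median of 0.916. Ebf2 (0.622), Ebf1 (0.684) and Ebf3 (0.742) were lowest, and Nr4a2 (1.24) and Isl1 (1.21) were above 1. Of 10 genes of inhibitory transmission, 9 were lower, with Gad1 (9.20 CPM in DKO_Skp2het and 15.9 CPM in DKO, ratio 0.578) past that fold. Slc6a9 (0.776) and Gabra2 (0.792) followed, and Gphn stood at 0.986. Of 12 neuronal maturation genes, 11 were lower and none passed that fold. Elavl3 (0.722), Elavl4 (0.762) and Snap25 (0.864) were lowest and Map2 (1.00), Dcx (0.999) and Syp (0.982) highest. Of the 26 core proliferation genes 22 were lower as well, with a median of 0.892. Over all genes the median was 1.02 and 1.89% were lower past that fold, and the share below 1 was not counted. In dividing cells, 5 of the 10 inhibitory genes, 3 of 11 measured subtype factors and 2 of 12 maturation genes were lower past 1.5-fold. Of all genes tested there, 3.7% were. Genes of differentiated neurons thus moved with the 10 factors in dividing cells, and their part in the result was not tested.

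The genes most like each factor across the 25 clusters of at least 30 cells, by Pearson correlation of log2(CPM + 5) among 10590 genes, are given as a description, since clusters share libraries and depth. Foxn4 was most like Hes2 (r = 0.910), Smad2 and Zfp91. Ptf1a was most like Ripply3 (0.930), Neurog1 (0.888) and Lhx5 (0.867), and Lhx5 was most like Neurog1 (0.948), Ptf1a and Klhl35. Prdm13 was most like Klhl35 (0.952), Ebf1 and Nhlh1, and Tfap2c was most like Hpca (0.904), Adrbk2 and Glra2. Tfap2a and Tfap2b were most like each other (0.956) and next most like Slc32a1, the vesicular transporter gene of inhibitory neurons (0.953 with Tfap2a and 0.947 with Tfap2b), followed by Tmem179 for Tfap2a and Gp1bb for Tfap2b. Onecut2 was most like Rfx7 (0.939), Tmem2 and Kcnb2. Foxn4 and Prdm13 had an r of -0.09 with each other, and Foxn4 and Tfap2a had -0.40. Lhx1 peaked in a cluster too small to enter, and Lhx1 and Onecut1 are not ranked.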

How the data were processed

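Single-cell transcriptomes of 2 libraries, 1 per genotype, were used as deposited. The authors deposited whole-number UMI counts for each gene in each barcode, not normalized. Cell Ranger 2.2.0 and mm10 are named in the submitters' processing notes. The sources used here do not give the authors' barcode selection or the strand setting. The 10 factors, the gene lists and the tests were chosen with earlier results of these data known.

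Barcodes under 500 genes or above 20% mitochondrial UMIs were dropped. The highest doublet scores, from 2 simulated doublets per cell, were removed at 0.8% per 1000 barcodes, which took 216 DKO_Skp2het and 105 DKO barcodes. Clustering used 2000 variable genes without the 10 factors and the core proliferation list, 30 components, 15 neighbours and leidenalg 0.10.2 at resolution 1.0, without integration of the libraries. The other tools were igraph 0.11.9, scikit-learn 1.9.0, pandas 2.3.3, scipy 1.17.1, numpy 2.4.6, matplotlib 3.10.9 and Python 3.11.15. A cluster was named from fixed markers of 17 types at a mean log2 fold of at least 1.0, with 3 or more of its markers past 2-fold, unless another type had more markers among the 10 leading genes. That naming rule and the rule for comparing cluster sizes (at most 1 of 10 leading genes different) were chosen after the clusters had been seen.

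Counts were summed per population and scaled to CPM. Since each transcript is tagged at its 3′ end, CPM is not divided by gene length. Ratios are DKO_Skp2het over DKO with exact conditional binomial intervals, UMI sums have exact Poisson intervals and shares have exact Clopper-Pearson intervals, all at 95% and for counting error only. A ratio needs at least 10 UMIs and a count of genes at least 50 UMIs, and a gene counts as past the threshold at 1.5-fold. The calculation was tested on simulated data. Named genes are the 10 factors, the 3 genes most like each factor with at least 200 UMIs, the 3 highest and 3 lowest library ratios per list, and genes that a result turns on. Some genes that this rule names are not reported here. Alternatives covered scaling, thinning, a common depth floor, the filters, doublets, the dividing threshold and clustering. No test was made, since each genotype has 1 library.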

Additional observations from a re-analysis of the deposited data

Results flagged for a closer look

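The library ratio of 4 factors (DKO_Skp2het over DKO) lay above 1 in some populations and below 1 in others, beyond counting error in each. With 1 library per genotype these differences were not tested, and many pairs of a factor and a cluster were looked at. Ptf1a was 1.53 in cluster 12 (140 UMIs in DKO_Skp2het and 238 in DKO), against 0.670 in cluster 5, 0.668 in all dividing cells and 0.424 in all other cells. Prdm13 was 1.58 in cluster 12 and 1.27 in cluster 7, against 0.410 in cluster 3 (9.38 CPM in DKO_Skp2het and 22.9 CPM in DKO, near its level in microglia-like cells), 0.569 in cluster 11, 0.263 in the bipolar-like cluster 15, 0.529 in all dividing cells and 0.766 in all other cells. Lhx5 was 1.67 in cluster 12 (49 UMIs in DKO_Skp2het and 76 in DKO), against 0.665 in all dividing cells and 0.671 in all other cells. Tfap2a was 2.15 in cluster 5 (76 UMIs in DKO_Skp2het and 46 in DKO), against 0.662 in all cells not called dividing, which include cells of cluster 5.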

How the results depend on the processing

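The summed library ratio is given here on the log2 scale, DKO_Skp2het over DKO. It was below 0 in each population under each alternative run. Over all kept cells it was -0.50, and it moved to -0.56 with cells thinned to 1500 UMIs, -0.38 with both libraries held to at least 3420 UMIs per cell, -0.56 without horizontal-like cells and -0.13 with the DKO make-up of clusters. In dividing cells it was -0.55, and it moved to -0.62 when thinned, -0.44 at the common depth, -0.47 with 5 UMIs as the dividing threshold and -0.047 with the DKO make-up. In amacrine-like cells it moved by less than its counting interval under each alternative. The number of factors below 1 was 9, and 4 with the DKO make-up. That weighting, which includes clusters whose sizes are not compared, turned 3 factors past 1.5-fold the other way: Ptf1a over all kept cells to 0.064, and Prdm13 and Lhx5 in dividing cells to 0.070 and 0.46. Leaving out cluster 12 moved Prdm13 and Lhx5 in dividing cells to -1.30 and -1.08. The dividing over other ratio of Onecut1 in DKO turned to -0.19 after thinning. The library ratio of Lhx1 over all kept cells turned to -0.34 after thinning. Of 216 alternative values of single factors between libraries, 203 kept their direction, and of 120 values of dividing over other cells, 113 did. Most of the 13 library values that turned came from the DKO make-up of clusters. In dividing cells that weighting also turned Ptf1a to 0.28 and Tfap2a to 0.46. Weighting, leaving out horizontal-like cells and leaving out cluster 12 were added after the data had been seen. No paired analysis was possible because each genotype has 1 library. Depth limits what is said of Lhx1 and Onecut1, which have 65 to 139 UMIs per library over all kept cells, and 1895 kept DKO_Skp2het cells lie under 3420 UMIs, the minimum seen in DKO. The causes of these shifts were not tested.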

Other observations

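Some amacrine factors were also counted in a bipolar-like cluster, in part at lower levels in DKO_Skp2het. Cluster 15, led by Vsx1 and Scgn, had 30.1 Prdm13 CPM in DKO_Skp2het (11 UMIs in 81 cells) and 114 CPM in DKO (64 UMIs in 63 cells). Ptf1a had 0 UMIs there in DKO_Skp2het and 19 UMIs in DKO, and Tfap2c had 19.2 CPM in DKO_Skp2het and 69.8 CPM in DKO. Tfap2b had 35.6 CPM in DKO_Skp2het and 35.8 CPM in DKO, and Onecut2 had 73.9 CPM in DKO_Skp2het and 85.9 CPM in DKO, a ratio of 0.860 with an interval that spans 1. The cells were shallower in DKO_Skp2het, with a median of 3451 UMIs, against 7554 in DKO. Of the 10 genes that lead cluster 15, 3 differed between the libraries. The part of depth in these values was not tested.

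In cluster 23, 9 of 15 DKO_Skp2het cells and 12 of 22 DKO cells were called dividing, yet Tfap2b stood at 509 CPM in DKO_Skp2het and 497 CPM in DKO, and Isl1 at 1633 CPM over both libraries. The cluster has no cell type name. In cluster 21, Prdm13 had 18 UMIs in DKO_Skp2het and 5 in DKO, a ratio of 3.55 (1.27 to 12.2).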
